A study of Homo sapiens with 4 samples.

Results

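The Frizzled receptors and the co-receptor LRP6 receive Wnt signals at the cell surface, and their transcripts were followed here in human keratinocytes after knockdown of ALKBH5. The members were the genes whose symbol was FZD1, FZD2, FZD3, FZD4, FZD5, FZD6, FZD7, FZD8, FZD10 or LRP6, which gave 10 of the 58735 genes in the tables. ALKBH5 removes the m6A methyl mark from RNA, and the study asked what its loss does to keratinocytes. Poly-A RNA of HaCaT cells, a spontaneously immortalised human keratinocyte line, was sequenced in 4 libraries. The siControl group (2 libraries) was wild type and received a normal control siRNA, and the siALKBH5 group (2 libraries) received an siRNA against ALKBH5. All cells were grown in DMEM with fetal bovine serum and transfected with lipofectamine. The comparison holds for 1 cell line, for a partial loss of the transcript, and for an siRNA whose sequence and time of action the labels do not give. Nothing in the labels says that the libraries of a group came from separate cultures, so that p-values measure only the spread between these libraries, which may be technical.

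The libraries held 16017502 to 18837807 counts in genes. ALKBH5 itself was counted 1512 and 1576 times in siControl against 956 and 816 times in siALKBH5, a level of 55.5% of control. The keratinocyte markers were detected throughout (12 of 12), with a summed level of 33561 to 33743 CPM in siControl and 34623 to 34680 in siALKBH5. CPM are counts of a gene relative to the library total, which was unscaled for the marker sums given here and scaled for all later values. Single markers moved within that sum: KRT5 had 115409 and 124232 counts in siControl against 208886 and 186161 in siALKBH5, and KRT8 21839 and 24736 against 35754 and 32126, while KRT15 had 241548 and 272307 against 201524 and 178258. The summed fibroblast markers were at 22.0 to 23.0 and 18.5 to 19.0 CPM, with COL1A2, PDGFRA and PDGFRB (3 of 7) at 0 in every library. COL1A1 had 267 to 310 counts. DCN had 52 and 71 counts in siControl against 24 and 29 in siALKBH5, and LUM 33 and 31 against 15 and 16. The melanocyte markers were at 13.8 to 14.2 and 11.8 to 14.0 CPM (TYR at 0, MITF at 163 to 198 counts). The endothelial markers were at 32.7 and 34.7 to 35.1 CPM (KDR at 0), and the immune markers at 2.56 to 3.19 and 3.91 to 4.25 CPM. Within the endothelial sum, CDH5 had 231 and 237 counts in siControl against 151 and 147 in siALKBH5, and VWF 293 and 348 against 501 and 437. CD14, an immune marker, had 34 and 50 against 74 and 61. The mitochondrial share was 10.2% in siControl and 9.63% to 9.64% in siALKBH5. The part of these differences in the results was not tested.

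A Wnt ligand binds the cysteine-rich domain of a Frizzled receptor outside the cell and brings it together with LRP5 or LRP6. The Frizzled tail then recruits Dishevelled, the tail of LRP6 is phosphorylated and holds Axin, and β-catenin escapes degradation and enters the nucleus. Frizzleds also act without LRP6 in planar cell polarity, which orients epithelial cells and hairs. In skin these pathways are known for hair follicle formation, the upkeep of basal keratinocytes and the orientation of hair.

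The stretches of the receptors that contact the next protein in the pathway are shown, with 1 motif searched in the Frizzled genes and another in LRP6. In all 9 Frizzled genes a script found exactly 1 KTxxxW motif in the translated coding sequence, the tail motif through which Frizzleds bind Dishevelled. Its 18 coding bases (GENCODE 29, GRCh38) are written 5′ to 3′ on the strand of the gene, with the lysine, threonine and tryptophan codons in capitals, for the 7 genes printed here. The site lies at chr7:91266753-91266770 (+) in FZD1, chr17:44559315-44559332 (+) in FZD2, chr11:86951244-86951261 (−) in FZD4, chr2:207767150-207767167 (−) in FZD5, chr2:202036301-202036318 (+) in FZD7, chr10:35639591-35639608 (−) in FZD8 and chr12:130164518-130164535 (+) in FZD10. Each site is in coding sequence, in the last exon of its gene.
FZD1: AAGACCctcaactccTGG
FZD2: AAGACGctgcactcgTGG
FZD4: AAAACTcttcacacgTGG
FZD5: AAGACGgtggagtcgTGG
FZD7: AAGACCctgcagtcgTGG
FZD8: AAGACGctggagtccTGG
FZD10: AAGACTctgcagtccTGG

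In FZD1, FZD2 and FZD7 the motif and what follows it take up the last 23 residues of the protein, against 209 residues in FZD6, the longest such tail. In LRP6, the motif PPPSP or PPPTP, whose phosphorylated form holds Axin, was found 3 times in the tail. This search by exact letters leaves out variant forms, so that 3 is not a count of all Axin-binding motifs. Its coding bases are shown in capitals, 5′ to 3′ on the minus strand, at chr12:12124639-12124653 in exon 22 of 23 and at chr12:12121249-12121263 and chr12:12121144-12121158 in exon 23.
LRP6 stretch 1: CCTCCACCATCCCCA
LRP6 stretch 2: CCACCTCCCACACCC
LRP6 stretch 3: CCGCCACCCTCTCCC

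HaCaT cells expressed the Frizzled genes at very unequal levels, and FZD6 led by far. Levels are given per length as FPKM, which divides CPM by the listed gene length in kilobases. In siControl, FZD6, a receptor known for hair orientation, was at 54.0 ± 0.484 FPKM (SD, n = 2). FZD2 followed at 8.25 ± 0.377 and FZD7 at 7.26 ± 0.0457 FPKM, both close relatives of FZD1. FZD5, at 3.04 ± 0.0531 FPKM, and FZD1, at 2.32 ± 0.0678 FPKM, were lower. LRP6 was at 1.82 ± 0.138 FPKM. Each of these 6 genes was above the next in both siControl libraries.

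The remaining members were near the lower end of detection. FZD4, the receptor of Norrin in retinal vessels, was at 0.427 ± 0.129 FPKM in siControl. FZD8 was at 0.389 ± 0.102 FPKM and FZD3, known for axon guidance, at 0.342 ± 0.0635 FPKM. Their siControl libraries overlapped, so that their order was not resolved. FZD10 was lowest, at 0.259 ± 0.00757 FPKM, below FZD3 in both libraries. FZD9, the Frizzled gene not among the members, had 0 counts in all 4 libraries.

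After ALKBH5 knockdown the order changed in places where the levels were close. FZD7, at 7.98 ± 0.453 FPKM, overlapped FZD2, at 7.97 ± 0.0272 FPKM. FZD1, at 1.58 ± 0.233 FPKM, overlapped LRP6, at 1.58 ± 0.0608 FPKM. FZD8, at 0.229 ± 0.0803 FPKM, overlapped FZD10, at 0.285 ± 0.0112 FPKM, and FZD3, at 0.265 ± 0.0178 FPKM. FZD6, at 46.3 ± 1.70 FPKM, was again above all other members, and FZD5, at 4.45 ± 0.212 FPKM, again lay between FZD2 and FZD7 above it and FZD1 and LRP6 below it. FZD4, at 0.528 ± 0.0726 FPKM, was above FZD8, FZD3 and FZD10 in both siALKBH5 libraries.

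**Figure D1:**
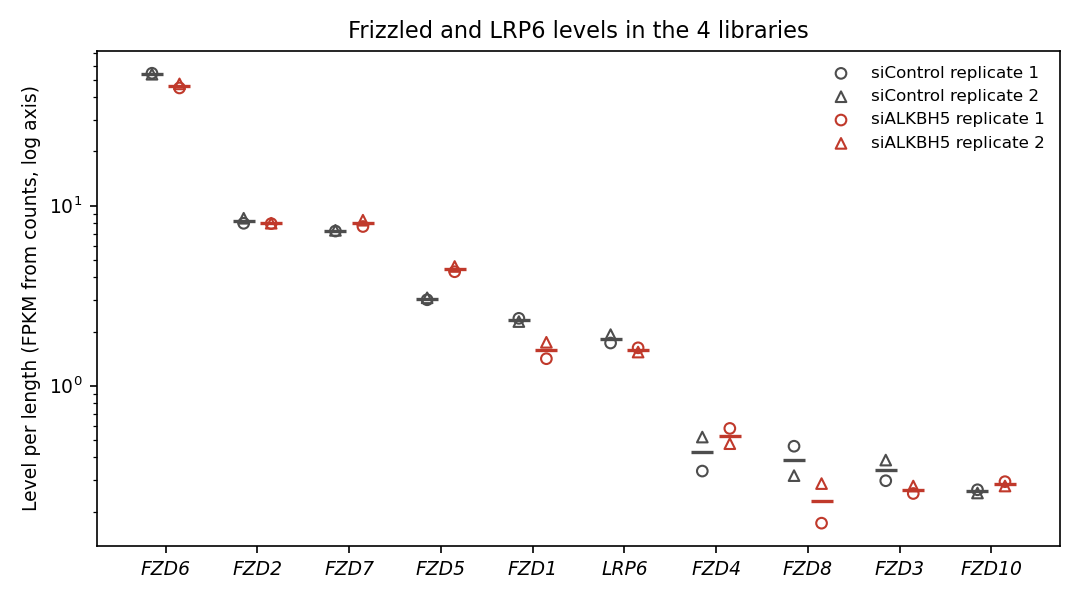
Level per length (FPKM from counts, log axis) of each member in each library, with siControl in grey and siALKBH5 in red; circles and triangles are the 2 libraries of a group and bars their mean. FZD6 lies above 45 FPKM in every library, FZD5 is higher and FZD1 lower in both siALKBH5 libraries, and FZD4, FZD8, FZD3 and FZD10 all lie below 0.58 FPKM.

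The knockdown moved 3 of the 10 members past the threshold, in different directions. FZD1 and FZD6 were lower in siALKBH5, FZD5 was higher, and 7 members were not called (edgeR quasi-likelihood test on the counts, Benjamini-Hochberg adjusted p under 0.05 over 15075 genes). All 10 members passed the filter on low counts. Of all genes tested, 17.3% were lower and 19.3% higher by the same rule, beside 2 lower and 1 higher of the 10 members. The median log2 fold change was -0.129 over the members and -0.008 over all genes tested. A change of at least 1 on the log2 scale was called for 0 members, by edgeR and by DESeq2, against 2.92% of all genes. At an unadjusted edgeR p under 0.05 there were 3 members, and 0 of them with that size. The libraries of the 2 groups did not overlap for 8 of 10 members, beside 66.3% of all genes. In bulk RNA, fewer cells with a transcript and less transcript per cell cannot be told apart.

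FZD5 was the member that rose. FZD5 (ENSG00000163251, chr2:207762586-207769563, minus strand) is a receptor for the β-catenin branch known for Paneth cell maturation in the gut. It had 20.1 and 20.6 CPM in siControl against 28.8 and 30.8 CPM in siALKBH5, from 325, 372, 539 and 508 counts. Both siALKBH5 libraries were above both siControl libraries, with a gap that exceeded the distance between libraries of 1 group. The level was 1.46-fold that of control, with a log2 fold change of 0.55 (SE 0.0842, 95% interval 0.37 to 0.72, edgeR adjusted p = 3.28e-06).

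FZD1 fell. FZD1 (ENSG00000157240, chr7:91264364-91271326, plus strand) is a receptor that signals through β-catenin with LRP6. It had 16.5 and 15.8 CPM in siControl and 9.84 and 12.1 CPM in siALKBH5, from 266, 285, 184 and 200 counts. The siALKBH5 libraries were below the siControl libraries, with a wider spread between them. The level was 68.0% of control, with a log2 fold change of -0.56 (SE 0.121, 95% interval -0.81 to -0.32, edgeR adjusted p = 0.000362). Leaving out 1 library at a time gave log2 fold changes from -0.71 to -0.41.

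FZD6, the most abundant member, fell by less. FZD6 (ENSG00000164930, chr8:103298433-103332866, plus strand) had 221 and 218 CPM in siControl and 183 and 193 CPM in siALKBH5, from 3567, 3933, 3426 and 3180 counts. The groups did not overlap. The level was 85.6% of control, with a log2 fold change of -0.23 (SE 0.0332, 95% interval -0.29 to -0.16, edgeR adjusted p = 1.56e-06). This call rested on the small spread between these libraries (common coefficient of variation 0.0253). With the coefficient of variation set at 0.1 the log2 fold change was -0.22, with an SE of 0.146 and an adjusted p of 0.367.

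**Figure D2:**
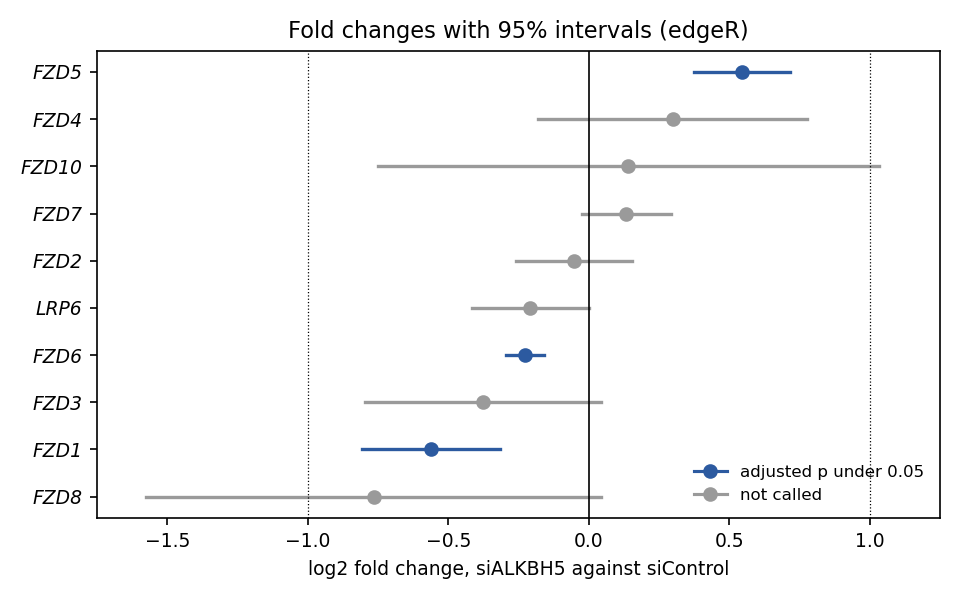
Log2 fold change of each member, siALKBH5 against siControl, with its 95% interval from edgeR; blue marks an adjusted p under 0.05 and dotted lines mark a change of 1 in size. FZD5 lies to the right of 0 and FZD1 and FZD6 to the left with intervals clear of 0, while the interval of FZD8 runs from -1.57 to 0.04.

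FZD8 had the largest fitted change in size and few counts. FZD8 (ENSG00000177283, chr10:35638249-35642278, minus strand) is a receptor with 1 exon that signals through β-catenin. Its counts were 30 and 23 in siControl against 13 and 19 in siALKBH5, or 1.86, 1.28, 0.695 and 1.15 CPM. The siALKBH5 libraries were below the siControl libraries, but siALKBH5 replicate 2 and siControl replicate 2 nearly met. The level was 58.9% of control, with a log2 fold change of -0.77 (SE 0.398, 95% interval -1.57 to 0.04, edgeR adjusted p = 0.136). The value was -1.15 without siALKBH5 replicate 2 and -0.43 without siALKBH5 replicate 1. FZD8 is among the study's candidates, which combined a fall in RNA-seq with m6A peaks measured beyond the coding sequence in keratinocytes and epidermis. The RNA-seq came from these same libraries, so that the direction of FZD8 here is not independent evidence. The paper's rule for RNA-seq included a change of at least 1 on the log2 scale. Beside it, the methods give an FDR under 0.05 and the figure legend a P under 0.05. FZD8, at -0.77 in the fit used here with an unadjusted edgeR p of 0.0629, reached neither that size nor either p limit. The deposit sets the first libraries together and the replicates together. The fall was larger between the first libraries (1.86 against 0.695 CPM) than between the replicates (1.28 against 1.15 CPM).

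The study measured its candidates by qPCR after ALKBH5 knockdown, and its text does not state the result for FZD8. Its primers for FZD8 are printed because they show which stretch a check by PCR reads. Both lie in the coding sequence of its only exon, at chr10:35641408-35641427 (forward) and chr10:35641286-35641305 (reverse), and bound a product of 142 bases. Over all protein-coding genes with a transcript here, each site was found in the transcript of 1 gene. Primers are written 5′ to 3′ in capitals throughout.
FZD8 forward primer: GGAGTGGGGTTACCTGTTGG
FZD8 reverse primer: GTAGCCGATGCCCTTACACA

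LRP6 missed the threshold. LRP6 (ENSG00000070018, chr12:12116025-12267012, minus strand) had 17.8 and 19.9 CPM in siControl and 16.8 and 15.9 CPM in siALKBH5, from 288, 358, 314 and 262 counts. The siALKBH5 libraries were below the siControl libraries by less than the siControl libraries differed from each other. The level was 86.7% of control, with a log2 fold change of -0.21 (SE 0.102, 95% interval -0.42 to 0.00, edgeR adjusted p = 0.114), or -0.28 to -0.13 with 1 library left out. The related co-receptor LRP5 had 1068 and 1254 counts with siControl against 1300 and 1115 with siALKBH5, with a log2 fold change of 0.01 (SE 0.0515, edgeR adjusted p = 0.867). LRP5 was at 11.0 FPKM in siControl, above LRP6. LRP5 and LRP6 together were at 12.8 ± 0.529 FPKM in siControl and 12.7 ± 0.272 FPKM in siALKBH5.

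The other 5 members were not called either. FZD3 had 4.09 and 5.33 CPM in siControl and 3.47 and 3.82 CPM in siALKBH5, with a log2 fold change of -0.38 (SE 0.206, edgeR adjusted p = 0.158), or -0.55 to -0.17 with 1 library left out. FZD7 had 27.9 and 28.1 CPM in siControl and 29.6 and 32.0 CPM in siALKBH5, with a log2 fold change of 0.13 (SE 0.0779, edgeR adjusted p = 0.186). The groups did not overlap for either gene. FZD2 had 16.9 and 18.0 CPM in siControl and 16.8 and 16.9 CPM in siALKBH5, and its interval ran from -0.26 to 0.16. FZD4 had 2.48 and 3.83 CPM in siControl and 4.28 and 3.52 CPM in siALKBH5, and its interval ran from -0.18 to 0.78, with log2 fold changes from 0.03 to 0.66 when 1 library was left out. Both of these overlapped between groups. FZD10 had 14, 15, 18 and 15 counts, with a log2 fold change of 0.14 and an interval from -0.75 to 1.03.

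The summed Frizzled level was 76.3 ± 0.0063 FPKM in siControl and 69.5 ± 2.64 FPKM in siALKBH5, or 91.1% of control. Without FZD6 the sum was 22.3 ± 0.491 and 23.3 ± 0.940 FPKM. FZD6 held 70.8% ± 0.640 of the sum in siControl and 66.5% ± 0.0793 in siALKBH5. The share of FZD5 was 3.98% ± 0.0693 and 6.39% ± 0.0615, that of FZD7 9.51% ± 0.0592 and 11.5% ± 0.216, and that of FZD1 3.04% ± 0.0891 and 2.26% ± 0.250. FZD2 held 10.8% ± 0.492 and 11.5% ± 0.397, which overlapped. Shares of a sum depend on each other and were given no test, since 2 libraries against 2 cannot reach the threshold in an exact permutation test. By counts with no division by length, FZD5 held 6.54% and 10.4% and FZD6 70.4% and 65.8%.

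**Figure D3:**
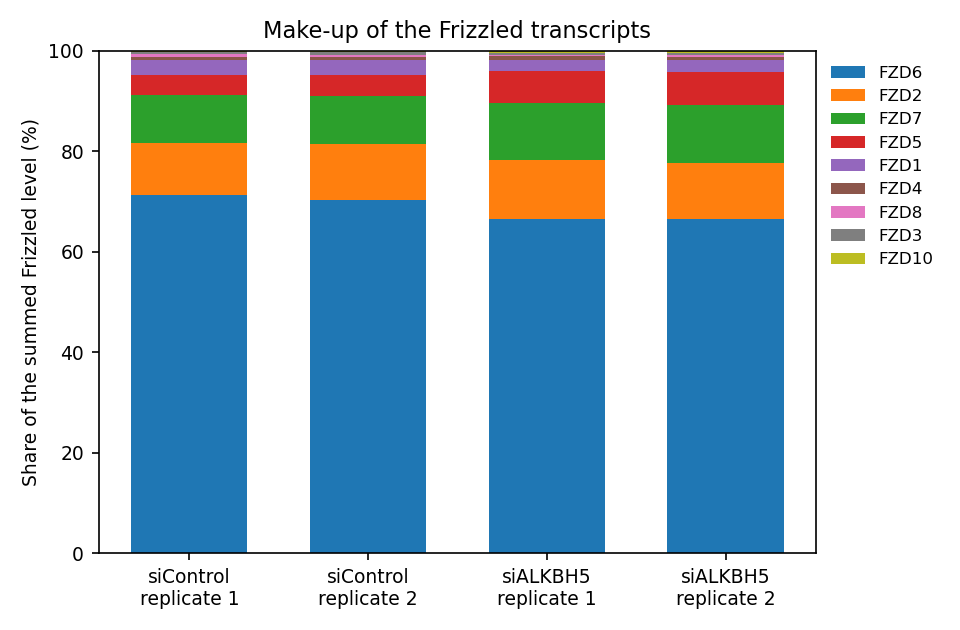
Share of each Frizzled gene in the summed Frizzled level (%, from FPKM) in each of the 4 libraries, stacked to 100%. FZD6 takes 66.5% to 70.8% as group means, and the band of FZD5 is wider in both siALKBH5 libraries than in both siControl libraries.

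The members differed in gene features that the choice by symbol did not use, read from the transcript of each gene with the longest coding sequence. In these transcripts FZD1, FZD2, FZD7, FZD8 and FZD10 have 1 exon, FZD4 and FZD5 have 2, FZD3 and FZD6 have 7, and LRP6 has 23. Exact stretches common to 2 transcripts were up to 81 bases (FZD1 and FZD2), 69 bases (FZD2 and FZD7), 52 bases (FZD2 and FZD5) and 51 bases (FZD5 and FZD8). The read length and the treatment of reads that fit several genes are not given in the sources used here, and a read that lies wholly within such a stretch cannot be told apart between the genes. FZD4 overlaps PRSS23 on the opposite strand, which had 965 and 1016 counts with siControl against 1248 and 1197 with siALKBH5. FZD6 overlaps BAALC-AS1 (90 to 101 counts) and LRP6 overlaps BCL2L14 (14 to 31 counts), both on the opposite strand. Whether the counting used strand is not given in the sources used here, and without it these pairs cannot be told apart where they overlap.

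The letters GGACT, a common form of the sequence in which m6A is found, were counted on the sense strand of the transcript with the longest coding sequence. FZD1 held 0.862 per kilobase, FZD5 1.342, FZD6 0.528, FZD8 1.241 and LRP6 1.896. The median over 19684 protein-coding genes was 0.939 (quartiles 0.531 and 1.437), and 87.5% of them held at least 1, as did all 10 members. A match is a run of letters and not a measured m6A site.

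The rest of the pathway was read from 9 lists of 158 genes in all, of which 111 were tested. Of these, 22 were lower and 25 higher in siALKBH5, and 64 were not called, with a median log2 fold change of -0.007. The background in all genes was 17.3% lower and 19.3% higher.

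Among the ligands, 1 of 11 tested fell and 1 rose (median -0.002). WNT11, a ligand of the planar polarity branch, fell from 1892 and 2093 counts to 1398 and 1208, with a log2 fold change of -0.66 (SE 0.0436, edgeR adjusted p = 3.58e-14). WNT10A, a ligand of the β-catenin branch with roles in skin, hair and teeth, was the most counted ligand and rose by 0.09 on the log2 scale (SE 0.0233, edgeR adjusted p = 0.00154), a call lost with the coefficient of variation set at 0.1. In the list for secretion and processing of Wnt proteins, 6 of 9 tested genes fell and 0 rose (median -0.125). PORCN, the enzyme that attaches the lipid to Wnt proteins, had a log2 fold change of -0.36, TMED5 -0.26, VPS26A -0.18 and SNX3 -0.13. The call of VPS26A was lost with DESeq2 (adjusted p = 0.0859), without siControl replicate 1 (-0.08) and without siALKBH5 replicate 1 (-0.12). TMED5 was not called without siControl replicate 2 (-0.20), nor SNX3 without siControl replicate 1 (-0.11) or siALKBH5 replicate 2 (-0.11). With the coefficient of variation set at 0.1, 0 of these 6 calls were kept.

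Among the other receptors, 1 of 7 tested fell and 0 rose (median -0.047). LRP4, which binds sclerostin and agrin, fell by 0.60 on the log2 scale (SE 0.192, edgeR adjusted p = 0.0134). This call was lost with DESeq2 (adjusted p = 0.093), without siControl replicate 1 (-0.38) and without siALKBH5 replicate 2 (-0.43). RYK, a receptor with a Wnt-binding domain, had 1786 and 2016 counts with siControl against 1945 and 1793 with siALKBH5, with a log2 fold change of -0.07 (edgeR adjusted p = 0.228). ROR1 had 8 to 17 counts and was not called, and ROR2, at 2 to 8 counts, was not tested.

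Of 8 tested genes in the list of antagonists, 4 rose and 1 fell, with a median of 0.520 beside -0.008 for all genes. That median lay between 2 genes with few counts, SFRP1 (52 to 99) and SOST (64 to 128). SFRP1, at 0.51 on the log2 scale, was not called (edgeR adjusted p = 0.0652), nor were APCDD1 at 0.10 and IGFBP4 at -0.19. KREMEN1 and KREMEN2 are receptors of the DKK proteins that help to remove LRP6 from the surface. KREMEN1 had 1809 and 1937 counts with siControl against 3159 and 2666 with siALKBH5, a log2 fold change of 0.59 (SE 0.0390, edgeR adjusted p = 2.83e-14). KREMEN2 had 26 and 31 counts and then 82 and 64, a log2 fold change of 1.31 (SE 0.253, edgeR adjusted p = 9.7e-05). DKK3, a divergent member of the DKK family, had 154 and 175 counts and then 376 and 359, a log2 fold change of 1.12 (SE 0.112, edgeR adjusted p = 6.81e-10). In each of these 3 genes the siALKBH5 libraries lay above the siControl libraries. SOST, which encodes sclerostin, rose by 0.53 on the log2 scale (edgeR adjusted p = 0.0185), a call lost with DESeq2 (adjusted p = 0.118), without siControl replicate 1 (0.41) and without siALKBH5 replicate 1 (0.41). DKK1, the ligand of LRP6 that blocks it, fell instead, with a log2 fold change of -0.29 (SE 0.0783, edgeR adjusted p = 0.00323), but -0.13 and not called without siControl replicate 2. The calls of SOST and DKK1 were also lost with the coefficient of variation set at 0.1.

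The list for receptor turnover had 1 of 7 tested genes higher and 1 lower (median 0.099). LGR6, an R-spondin receptor known from skin stem cells, rose from 255 and 237 counts to 412 and 371, a log2 fold change of 0.63 (SE 0.103, edgeR adjusted p = 9.53e-06). TMEM59 fell by 0.18, a call lost with the coefficient of variation set at 0.1. The ligases that remove Frizzleds from the surface were not called: RNF43 had a log2 fold change of 0.10 (edgeR adjusted p = 0.772) and ZNRF3 of 0.28 (edgeR adjusted p = 0.131). LGR4, the R-spondin receptor with the most counts of the LGR genes, had -0.10 (edgeR adjusted p = 0.0701).

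The lists for the cytoplasm and nucleus had medians near 0, with single genes further away. Of 24 tested cytoplasmic genes 3 fell and 3 rose (median -0.002), with TMEM198 at -0.80, CSNK1G3 at -0.30, TNKS2 at -0.24 and DVL2, a Dishevelled, at 0.18 on the log2 scale. The call of TMEM198 was lost with DESeq2 (adjusted p = 0.155), without siControl replicate 2 (-0.59) and without either siALKBH5 library (-0.89 and -0.71), and that of DVL2 without siALKBH5 replicate 1 (0.11). CTNNB1, which encodes β-catenin, had 2749 and 3227 counts with siControl against 3228 and 2782 with siALKBH5, with a log2 fold change of -0.03 (edgeR adjusted p = 0.487). Of 13 tested TCF/LEF genes and co-factors 2 fell and 1 rose (median -0.072), with TLE4 at -0.38, HBP1 at -0.31 and BCL9L at 0.20. With the coefficient of variation set at 0.1, 0 of these 3 calls were kept, and CSNK1G3, TNKS2 and DVL2 also lost theirs. Among the genes known as β-catenin targets 3 of 12 fell and 2 rose (median 0.021). Those that fell were BAMBI, CCND1 and DKK1, which is described above. CCND1 had a log2 fold change of -0.16 (SE 0.0282, edgeR adjusted p = 3.43e-05). Its call was kept with DESeq2 and lost with the coefficient of variation set at 0.1. BAMBI had 44 and 30 counts and then 14 and 18, a log2 fold change of -1.25 (SE 0.373, edgeR adjusted p = 0.00814). That call was lost with DESeq2 (adjusted p = 0.0553), without siControl replicate 1 (-0.86) and without siALKBH5 replicate 1 (-0.99). BAMBI is another of the study's candidates. SOX9 was higher, at 0.62, and so was CD44, at 0.23. The call of CD44, but not that of SOX9, was lost with the coefficient of variation set at 0.1. AXIN2, the standard readout of the branch, had 3 to 10 counts and was not tested.

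The planar polarity and non-canonical list had 13 of 25 tested genes higher and 5 lower (median 0.133). VANGL2, a core polarity protein, was higher with a log2 fold change of 0.50 (SE 0.0541, edgeR adjusted p = 3.4e-09), and RHOA, the GTPase at the end of the branch, with 0.47 (SE 0.0284, edgeR adjusted p = 3.37e-15). PRICKLE1, another core protein, was lower at -0.97 and FUZ at -0.83. The PRICKLE1 call was lost with DESeq2 (adjusted p = 0.0801), without siControl replicate 1 (-0.90) and without siALKBH5 replicate 2 (-0.83). With the coefficient of variation set at 0.1, 2 of the 13 higher and 3 of the 5 lower calls were kept. At that setting the SE was 0.146 even for FZD6, the most abundant member, so that small changes could not be called. The calls kept there therefore do not show which direction prevailed. DESeq2 kept 10 of the higher and 2 of the lower calls. Scaling by library totals kept 10 of the higher and 5 of the lower calls.

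**Figure D4:**
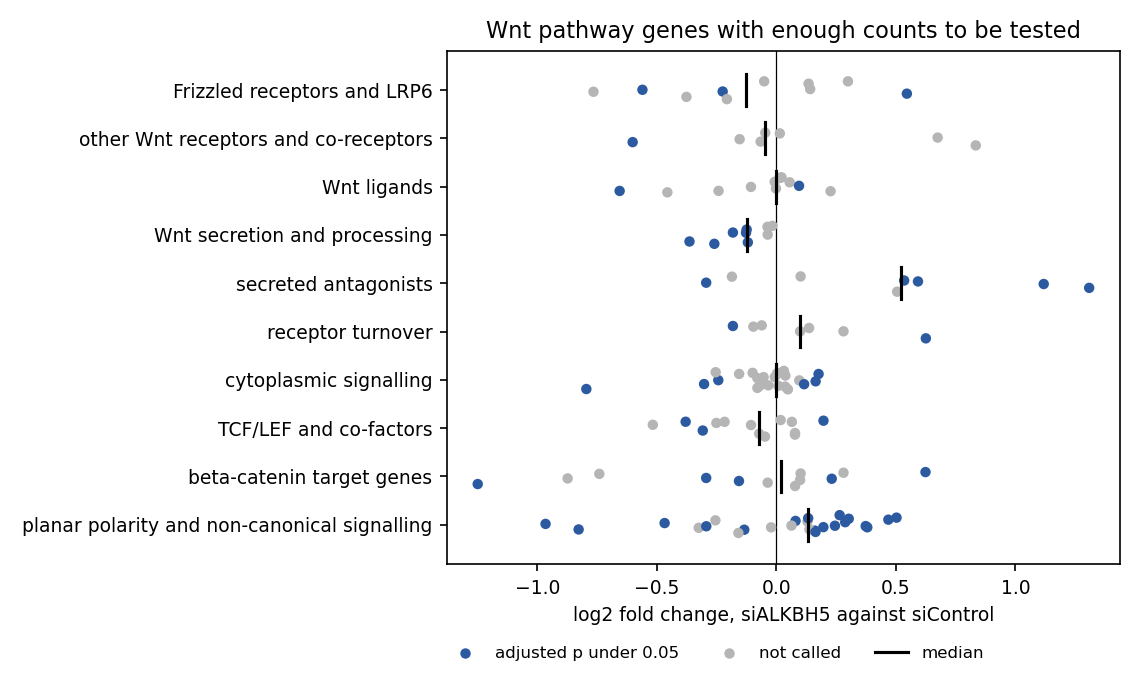
Log2 fold change, siALKBH5 against siControl, of every tested gene of the members and the 9 pathway lists, spread vertically for legibility; blue marks an edgeR adjusted p under 0.05 and black bars mark the median. The antagonist list has its median at 0.520, and the members spread to both sides of 0 with a median of -0.129.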

How the data were processed

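Counts per gene were deposited by the authors as raw read counts, without normalization. The submitters' processing notes name HISAT2 2.0.5, featureCounts 1.5.0-p3, DESeq2 1.20.0 and hg38. The FPKM deposited by the authors were not used. FPKM were recomputed from the counts, the listed gene lengths and TMM-scaled library totals. The authors' columns of fold changes and p-values were not used. All 58735 genes had the coordinates of GENCODE 29, and 0 columns of sample values were left unmapped.

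Low genes were removed with filterByExpr, TMM scaling was applied, and siALKBH5 was compared with siControl by the quasi-likelihood test of edgeR 4.0.16 (R 4.3.3; glmQLFit and glmQLFTest without covariates) with Benjamini-Hochberg adjustment over the 15075 genes tested. The pipeline was tested on simulated data. Depth was 16017502 to 18837807 counts, and intervals on low counts cover counting and library spread only. Named genes were the members, a set of receptors and regulators always given, and up to 4 called genes per list with the largest change at a mean of at least 1 CPM. CCND1 and the uncalled genes of the antagonist list were named besides. The members and lists were chosen with earlier results of these data known. Alternatives were DESeq2 1.42.0, other scalings and filters, a fixed coefficient of variation of 0.1, the replicate number as a block, each library left out, and shares by counts. The PPPSPxS motif planned for LRP6 gave no match, and PPPSP or PPPTP was searched. The protein stretches are shown as coding bases.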

Additional observations from a re-analysis of the deposited data

How the results depend on the processing

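The members kept their direction and their side of the threshold under every alternative run, except FZD6 with the coefficient of variation set at 0.1, where 1 member was lower instead of 2, and FZD10 with DESeq2, which gave it the same direction but no adjusted p. For the pathway genes, 22 lower and 25 higher became 14 lower and 20 higher with DESeq2, 24 lower and 22 higher with library totals, and 7 lower and 7 higher with the coefficient of variation set at 0.1. Of these 47 calls, 34 were kept with DESeq2, 14 with the set coefficient, 44 to 47 with other scalings and filters, and 35 to 39 with 1 library left out, with 0 changing direction in any of them. With 1 library left out, the lone library of a group was taken to vary like the others, and the pathway counts were 16 to 18 lower and 19 to 26 higher. In all genes the set coefficient called 668 lower and 961 higher in place of 2610 and 2913, and library totals 2893 lower and 2617 higher. With the replicate number as a block, the members gave 2 lower and 1 higher and all 47 pathway calls were kept. The labels do not number the libraries, but the deposit groups siControl with siALKBH5 and siControl-replicate with siALKBH5-replicate, and the block follows this grouping. What the libraries of such a pair shared is not stated. Their deviations had a correlation of 0.049 over 15075 genes. By counts in place of levels per length, the siALKBH5 share of FZD2 was 5.89% and of FZD7 10.8%. Depth limited FZD3, FZD4, FZD8 and FZD10, with 13 to 96 counts a library.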
